A study of Mus musculus with 3 samples.

Results

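The contractile and calcium-handling genes of skeletal muscle fibres were followed in mouse aortas labelled Plk1(+/-). The set holds 10 genes, chosen by gene name with all their probes, and it splits by textbook use into 7 genes of fast fibres and 3 genes of slow fibres. Fast fibres use the myosin heavy chains Myh1, Myh2 and Myh4, troponin T3 (Tnnt3), troponin I2 (Tnni2), the calcium pump Atp2a1 and the calcium store protein Casq1. Slow fibres use Myh7, Tnnt1 and Tnni1. All 10 were on the array, with 19 probes among 41174, and all 10 entered the test among 22170 features.

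The samples labelled Plk1(+/-) were 3 individual aortas, and the control was 1 pool of 3 wild-type aortas. All came from mice of 129/CD1 background aged 3 to 5 months, and the labels give no treatment. Each two-colour array held RNA of 1 Plk1(+/-) aorta in Cy5 and RNA of the wild-type pool in Cy3, never the reverse, so dye and genotype cannot be told apart. The pool counts as 1 control sample, and the spread among the wild-type aortas was not measured.

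In a striated muscle fibre, myosin heavy chains pull on actin once calcium has moved the troponin complex. Troponin T anchors that complex to tropomyosin and troponin I holds the filament off until calcium arrives. Atp2a1 pumps calcium back into the sarcoplasmic reticulum, where Casq1 stores it. Each fibre type uses its own genes for these parts, and the mixture of myosins sets how fast a fibre contracts. The smooth muscle of the aortic wall contracts with other isoforms, such as Myh11 and Acta2. Myh7 is shared with the heart, where it encodes the beta myosin heavy chain.

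The probes that measured these genes are shown first, because several readings below differ between probes of 1 gene. Each is 60 bases long, and its position is that of the array's design on mm7. For 8 of the 19 the position covers more than 60 bases. Exon and untranslated-region annotation was not used here, and for probes that may reach beyond the coding part the first 30 bases are given. All letters are lower case because no base is singled out.

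Myh2, second probe, chr11:67274375-67274539 (+): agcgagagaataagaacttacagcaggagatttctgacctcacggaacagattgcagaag
Myh1, first probe, chr11:67306002-67306061 (+), first 30 bases: ggaggttcacaccaaaatcataagcgaaga
Myh4, second probe, chr11:67340868-67340927 (+): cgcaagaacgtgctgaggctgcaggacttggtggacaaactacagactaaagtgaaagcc
Myh7, first probe, chr14:49837275-49837334 (-), first 30 bases: cctggagcctttgcaacagccctttaggtg
Tnnt3, second probe, chr7:138939629-138939854 (+): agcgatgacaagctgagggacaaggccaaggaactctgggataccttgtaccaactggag
Tnnt1, chr7:4071141-4071200 (-), first 30 bases: tgaaactccggattctgtctgagaggaaaa
Tnni2, chr7:138871616-138871675 (+), first 30 bases: agcattggggaagcacccaacatccagtct
Tnni1, first probe, chr1:135694939-135695814 (+): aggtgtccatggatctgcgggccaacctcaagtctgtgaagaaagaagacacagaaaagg
Atp2a1, first probe, chr7:122543142-122543485 (-): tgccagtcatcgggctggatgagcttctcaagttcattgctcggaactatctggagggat
Casq1, chr1:172180644-172182147 (-): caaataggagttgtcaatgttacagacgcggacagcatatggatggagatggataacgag

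The first probe of a gene is the one with the highest mean intensity, which stood for the gene in the test. Among 160 pairs of probes for different members, 1 pair shared a run of 12 or more bases, the first probes of Myh2 and Myh4, with 12. Within genes, the probe pair of Myh7 overlapped by 55 bases and the first and the third probes of Myh2 by 18, so these pairs are not independent readings. The fast myosins are close paralogs, and cross-hybridisation between their transcripts was not tested.

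After normalization, signal of the skeletal fibre genes was lower in the samples labelled Plk1(+/-) than in the pool for all 10 genes on all 3 arrays. It was far lower in sample 3 than in samples 1 and 2. Medians over the 10 genes on the log2 scale were -0.75, -0.996 and -2.84 in samples 1, 2 and 3, beside 0.03, 0.01 and 0.04 over all features. Over the 3 arrays the gene means lay between -1.92 for Myh2 and -1.06 for Tnni1. The probe that stood for Myh2 had a saturated Cy5 spot in sample 1, and the unsaturated probe of Myh2 averaged -2.38. None of the 10 passed the test over all features: limma called 0 of 10 at an adjusted p under 0.05, with adjusted p-values between 0.152 for Tnnt1 and 0.264 for Myh4. In the same limma test 0.866% of all features were called lower, most of them with a saturated spot. Without a saturated spot, 21 of 21638 features and 0 of 8 members were called lower. All 10 had an unadjusted limma p under 0.05, a level that 9.77% of all features reached with a lower signal. All 10 had a mean under -1, against 1.38% of all features, and all 10 were negative on every array, against 19.1%. Without a saturated spot, 162 of 21638 features and all 8 members had a mean under -1. In bulk tissue, fewer cells of a type and less RNA per cell cannot be told apart.

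**Figure D1:**
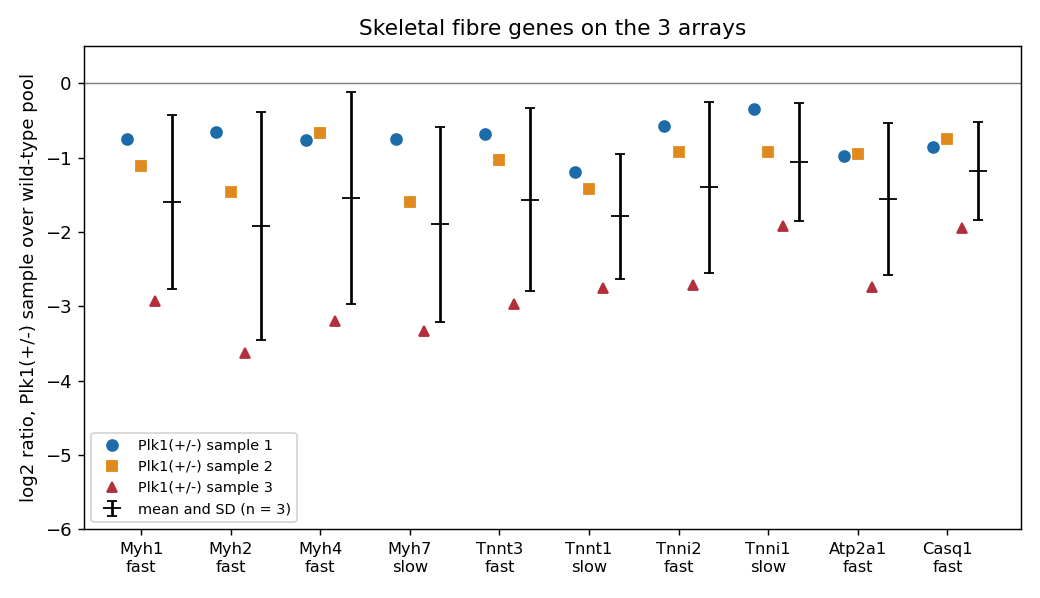
Log2 ratio (vertical axis) of each skeletal fibre gene in Plk1(+/-) samples 1, 2 and 3 over the wild-type pool, with the mean and SD over the 3 arrays as black bars. For every gene the triangle of sample 3 lies lowest, between -3.62 and -1.92, while samples 1 and 2 lie between -1.60 and -0.35.

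The spread between the samples was wide, with an SD of 0.66 for Casq1 to 1.53 for Myh2 around those means. Sample 3 was below sample 1 for all 10 genes, and below sample 2 for all 10. Over the 8 genes without a saturated spot the differences were -2.58 to -1.09 from sample 1 and -1.93 to -1.001 from sample 2, on the log2 scale. Among all features, sample 3 was the lowest of the 3 samples for 30.9%. Sample 2 was below sample 1 for 7 of 10 genes, the exceptions being Myh4, whose sample 2 spot was saturated, Atp2a1 and Casq1. In sample 3, 8 of the 10 genes were under -2, as were 0.392% of all features, and 8 of the 50 lowest features of that array were members. Another 21 of those 50 were genes of the muscle lists described below. Without sample 3 the member median was -0.90 in place of -1.56, all 10 genes stayed negative, and limma called 0 of 10 and 0 of all features. In that fit all 10 members and 3104 features had an unadjusted p under 0.05. Without sample 2 this held for 4 of 10 members and 1977 features, and with median centring for 4 of 10 members and 12711 features.

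Cy3 held the same pooled RNA on all 3 arrays, so its spread is technical only, whereas Cy5 held 3 different aortas. The signals of each dye are therefore given as a description. For the 19 probes the highest over the lowest Cy3 signal of the pool was 1.01 to 1.51, with coefficients of variation of 0.732% to 21.1%. The highest over the lowest Cy5 signal of the Plk1(+/-) samples was 1.46 to 8.81. These are mean spot signals before normalization, in scanner units, and levels of different probes are not set against each other. The median signal over probe spots was 335 to 357 in Cy5 and 155 to 165 in Cy3. Before normalization the first probe of every member read higher in Cy5 of sample 1 than in Cy3, and lower in sample 3. In sample 2 the first probes of Myh1, Myh4, Tnnt3, Tnni2, Tnni1, Atp2a1 and Casq1 also read higher in Cy5. Those of Myh2, Myh7 and Tnnt1 read lower in Cy5 of sample 2. The negative ratios of sample 1, and of the former genes in sample 2, thus rest on the correction between the dyes.

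**Figure D2:**
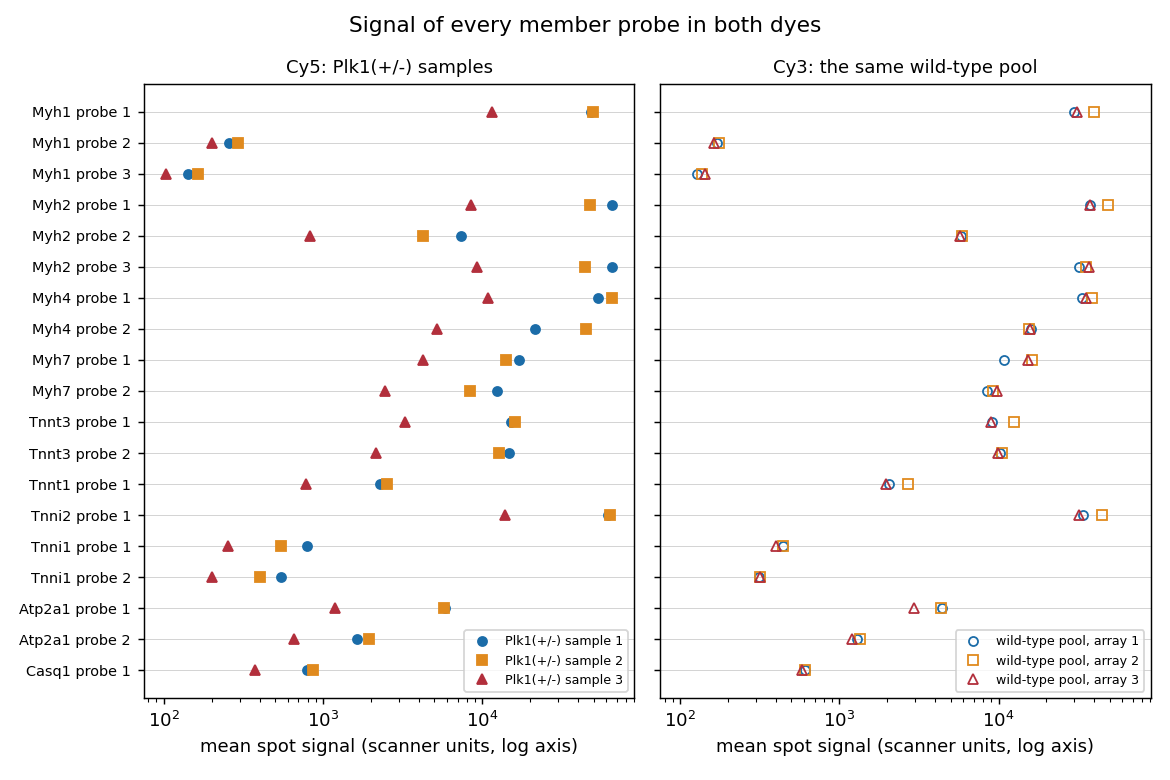
Mean spot signal in scanner units (horizontal axis, log scale) of all 19 probes, with Cy5 of the 3 Plk1(+/-) samples on the left and Cy3 of the wild-type pool on the same 3 arrays on the right. In Cy5 the triangle of sample 3 is the lowest for each probe, while the pool's 3 readings lie within 1.51-fold of each other.

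Among the myosin heavy chains, Myh2 and Myh7 had the lowest means of the 10 genes. Myh2, the myosin of fast oxidative fibres, read 65059, 47617 and 8525 in Cy5 of Plk1(+/-) samples 1, 2 and 3, against 37723, 49003 and 37301 in Cy3 of the pool, on its first probe. After normalization these gave log2 ratios of -0.66, -1.47 and -3.62, a mean of -1.92 ± 1.53 (SD, n = 3; limma adjusted p = 0.233). Sample 3 was thus 12.3-fold lower than the pool and ranked as the 9th lowest of 22170 features. Cy5 of sample 1 was saturated on this probe and on the third, so that its true ratio may be higher than read. The second probe, shown above and without a saturated spot, read -1.06, -1.84 and -4.25, with Cy5 signals of 7303, 4227 and 829 in samples 1, 2 and 3 against 5789, 5913 and 5731 in the pool. The third read -0.41, -1.11 and -3.48, so all probes of Myh2 gave the same order of the samples.

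Myh4 is the myosin of the fastest, glycolytic fibres in mice, and its probes differed in sample 2. Its first probe read -0.77, -0.67 and -3.19 in samples 1, 2 and 3 and averaged -1.54 ± 1.43 (SD, n = 3; limma adjusted p = 0.264), with Cy5 of sample 2 saturated. Its second probe had no saturated spot and gave Cy5 signals of 21407, 44826 and 5175 in samples 1, 2 and 3, against 16015, 15490 and 15684 in the pool. The log2 ratios of this probe were -1.01, 0.12 and -3.10. Sample 2 was therefore not below the pool on it, and this was the only one of 57 member readings that was not negative. On the second probes of both genes, Myh4 minus Myh2 was 0.06, 1.97 and 1.15 in samples 1, 2 and 3, given as a description because these probes were chosen after their values were seen.

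Myh1, the myosin of intermediate fast fibres, read 48108, 49610 and 11549 in Cy5 of samples 1, 2 and 3 and 29663, 39995 and 31200 in the pool. Its ratios were -0.75, -1.11 and -2.93, with a mean of -1.60 ± 1.17 (SD, n = 3; limma adjusted p = 0.218). A second, dim probe read -0.41, -0.36 and -0.73, with Cy5 signals of 255, 293 and 201 against 172, 175 and 165 in the pool. The third probe lay on the opposite strand to the other probes of the gene and read -0.58, -0.67 and -1.27. It was dimmer still, with Cy5 signals of 143, 165 and 103 against 128, 137 and 144 in the pool. In Cy5 it was well above background on 2 of 3 arrays, and whether it reads the Myh1 transcript was not tested. Sample 3 was lowest on all 3, and the means of the probes ran from -1.60 to -0.50, the widest range within any member.

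Myh7, the slow myosin, resembled Myh2 more than Myh4 in sample 2. Cy5 read 17082, 14087 and 4251 in samples 1, 2 and 3, against 10799, 16258 and 15209 in the pool. The ratios were -0.76, -1.60 and -3.34, a mean of -1.90 ± 1.31 (SD, n = 3; limma adjusted p = 0.207), and -0.85, -1.53 and -3.49 on its overlapping second probe. In sample 2 Myh7 ranked as the 49th lowest of 22170 features. On the unsaturated second probe of Myh4, Myh4 minus Myh7 was -0.25, 1.73 and 0.24 in the 3 samples, so its sign differed between arrays.

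Troponin T and troponin I genes of both fibre types were lower as well. Tnnt3 read 15128, 16067 and 3250 in Cy5 of samples 1, 2 and 3, against 9133, 12559 and 9028 in the pool, and its ratios were -0.69, -1.04 and -2.97. The mean was -1.56 ± 1.23 (SD, n = 3; limma adjusted p = 0.230). A second probe read -0.90, -1.11 and -3.70. Both probes thus gave the same order of the samples.

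Tnnt1, its slow counterpart, read 2273, 2533 and 786 in Cy5, against 2061, 2712 and 1976 in the pool. It had the lowest ratio of the members in sample 1, with -1.19, -1.43 and -2.75 in samples 1, 2 and 3. The mean of -1.79 ± 0.84 (SD, n = 3) had the smallest adjusted p among the members, 0.152 in limma. With median centring in place of loess, Tnnt1 passed at an adjusted limma p of 0.0352, where 7140 of 9767 calls over all features were higher. Over 15 alternatives its adjusted p ran from 0.0352 to 0.525.

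Tnni2, the fast inhibitor, read 61974, 63245 and 13870 in Cy5 of samples 1, 2 and 3 and 33803, 44582 and 32249 in the pool. In samples 1 and 2 this was close to the saturated Cy5 spots of Myh2 and Myh4, at 65059 to 65224, though not flagged. The ratios of Tnni2 were -0.57, -0.93 and -2.71, a mean of -1.40 ± 1.15 (SD, n = 3; limma adjusted p = 0.239). Slow Tnni1 read 795, 542 and 253 in Cy5, against 441, 446 and 402 in the pool. Its ratios of -0.35, -0.92 and -1.92 averaged -1.06 ± 0.80 (SD, n = 3; limma adjusted p = 0.225), and its second probe read -0.38, -0.81 and -1.87. In sample 1 Tnni1 was the member nearest to the pool.

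Both calcium genes read nearly alike in samples 1 and 2. Atp2a1 read 5830, 5729 and 1191 in Cy5 of samples 1, 2 and 3, against 4385, 4330 and 2939 in the pool. The ratios were -0.98, -0.95 and -2.74, with a mean of -1.56 ± 1.03 (SD, n = 3; limma adjusted p = 0.202), and a second probe read -0.96, -0.77 and -2.26. Casq1 read 788, 864 and 376 in Cy5, against 608, 613 and 585 in the pool. Its ratios of -0.85, -0.75 and -1.95 gave a mean of -1.18 ± 0.66 (SD, n = 3; limma adjusted p = 0.182), the smallest SD of the members. An SD above that of Casq1 was seen in 4.54% of all features.

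Fast and slow genes did not part by more than the spread between arrays. The median over the 7 fast genes was -0.75, -0.95 and -2.93 in samples 1, 2 and 3, and over the 3 slow genes -0.76, -1.43 and -2.75. Fast minus slow was 0.01, 0.47 and -0.18, a mean of 0.10 ± 0.33 (SD, n = 3), and it turned to -0.08 without sample 2. Between matched isoforms, Tnnt3 minus Tnnt1 was 0.23 ± 0.39 and Tnni2 minus Tnni1 was -0.34 ± 0.40 (SD, n = 3 each). Over 7 pairs, chosen after values were seen, the exact sign-flip p adjusted by Benjamini-Hochberg was 0.7 to 1, so no pair was shown to differ. With 3 arrays the unadjusted p cannot go below 0.25, and 4 of the 7 pairs include a gene with a saturated spot.

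Bright spots were looked at apart, with limits chosen after the values were seen. Features saturated in both dyes on all arrays, 38 in all and none of them a member, read -1.45, -1.43 and -1.49 in the median. With both dyes at the ceiling, such a ratio does not measure a difference between sample and pool. Bright features without a saturated spot, above 14 in mean log2 intensity, had medians of 0.07, 0.05 and 0.06 over 609 features. Loess centres ratios near 0 at each intensity, so these medians cannot show whether bright member probes are biased. Among member probes, the 13 that stayed under 25000 in Cy5 on all arrays had medians of -0.85, -0.95 and -2.74. The other 6 had -0.70, -1.02 and -3.15. Sample 3 was thus the lowest in both sets of probes.

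**Figure D3:**
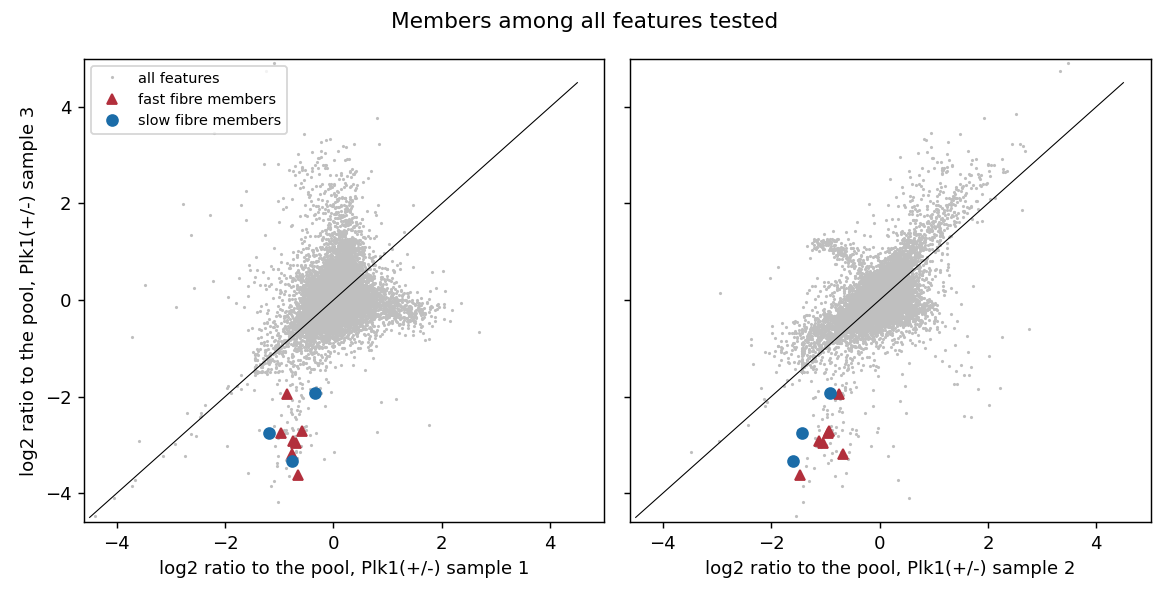
Log2 ratio of sample 3 (vertical axis) against sample 1 (left) and sample 2 (right) for all 22170 features in grey, with fast fibre genes as triangles and slow fibre genes as circles. All 10 genes lie below the line of equal ratios in both panels.

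By position, the fast myosins stand side by side on chromosome 11 in the order Myh3, Myh2, Myh1, Myh4, Myh8 and Myh13, with no other protein-coding gene listed among them. Myh3, the embryonic form, read only -0.13, -0.26 and -0.34 in samples 1, 2 and 3, and was well above background in Cy3 on 1 of 3 arrays. Myh8, the perinatal form, read -0.69, -0.57 and -3.15 on a probe with a saturated spot, close to Myh4. Myh13 was not well above background. Tnni2 and Tnnt3 lie on chromosome 7 with 1 protein-coding gene between them, and Tnnt1 and Atp2a1 lie on the same chromosome, as does Plk1. The 4 members on chromosome 7 had medians of -0.83, -0.996 and -2.75, and the other 6 had -0.75, -1.02 and -3.06.

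Promoters of the neighbouring fast myosins and of Tnnt1 are shown, which are the 4 entries that hold TATAAA and were chosen with the matches known. They run from 250 bases before to 50 after the RefSeq start on GRCm38.p6, for which 8 of the 10 members had an entry, with 10 entries in all. Tnni2 and Tnnt3 had none. Capitals mark TATAAA, the E-box CANNTG bound by myogenic factors, and the M-CAT element CATTCC, each on either strand. For MEF2 sites only a narrow form was searched, CTA and TAG with 4 bases between them, and no promoter of the members held it. Forms of the site with other end letters were not searched, so the members' promoters may still hold a MEF2 site.

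Myh2, chr11:67170777-67171076 (+): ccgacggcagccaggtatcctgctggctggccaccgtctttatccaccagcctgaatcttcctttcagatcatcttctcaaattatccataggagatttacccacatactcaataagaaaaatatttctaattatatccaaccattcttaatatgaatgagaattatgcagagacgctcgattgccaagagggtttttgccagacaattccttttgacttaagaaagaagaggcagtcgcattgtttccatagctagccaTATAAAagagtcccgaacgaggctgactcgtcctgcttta
Myh1, chr11:67199852-67200151 (+): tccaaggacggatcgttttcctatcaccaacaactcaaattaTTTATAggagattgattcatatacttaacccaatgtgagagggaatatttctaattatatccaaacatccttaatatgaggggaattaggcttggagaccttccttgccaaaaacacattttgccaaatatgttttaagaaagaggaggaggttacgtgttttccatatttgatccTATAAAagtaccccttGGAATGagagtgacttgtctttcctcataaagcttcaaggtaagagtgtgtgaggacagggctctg
Myh4, chr11:67237562-67237861 (+): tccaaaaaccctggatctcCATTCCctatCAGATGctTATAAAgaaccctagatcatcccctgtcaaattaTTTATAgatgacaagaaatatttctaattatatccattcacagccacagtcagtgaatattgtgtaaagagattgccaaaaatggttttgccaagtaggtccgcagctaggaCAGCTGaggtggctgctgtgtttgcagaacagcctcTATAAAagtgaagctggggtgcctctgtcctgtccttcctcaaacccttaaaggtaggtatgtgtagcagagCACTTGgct
Tnnt1, chr7:4515926-4516225 (-): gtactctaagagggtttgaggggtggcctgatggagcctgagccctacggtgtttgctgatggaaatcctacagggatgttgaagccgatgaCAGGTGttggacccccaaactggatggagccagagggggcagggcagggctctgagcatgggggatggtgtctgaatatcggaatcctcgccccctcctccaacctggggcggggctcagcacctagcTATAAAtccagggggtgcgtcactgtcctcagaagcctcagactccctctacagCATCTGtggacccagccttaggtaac

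TATAAA was in 4 of the 10 member entries, beside 13.6% of 32851 mouse promoters of the same length. In the Myh2 entry it began 10 bases after the RefSeq start. Overlapping entries of Myh7 and of Tnni1 were counted apart. An E-box was in 8 of 10, beside 72.3%, and CATTCC in 3 of 10, beside 14.7%. The narrow MEF2 form searched was in 3.7% of all. The promoters of Myh2 and Myh1 held no E-box and that of Myh4 held 3. These matches are a description of letters in this window only.

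Other genes of the muscle fibre were counted from lists of the same apparatus. Of 37 other sarcomere genes, 36 were tested, and limma called 0 over all features, with 25 at an unadjusted p under 0.05 and lower, and 34 negative on every array. Their medians were -0.68, -0.69 and -2.52 in samples 1, 2 and 3. The smallest p-values were those of the M-band gene Myom1 (-1.20 ± 0.37), the titin cap gene Tcap (-1.07 ± 0.32), the Z-disc gene Myoz2 (-1.52 ± 0.75) and the filamin gene Flnc (-0.78 ± 0.37; SD, n = 3 each), with limma adjusted p-values of 0.0901 to 0.167. Of these, Myom1 alone was lowest in sample 2, at -1.51, against -1.30 in sample 3. Sample 3 was the lowest sample for 32 of the 36.

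Genes of excitation and calcium handling stood at medians of -0.59, -0.49 and -1.08. Of 19 tested, 0 were called by limma over all features, 12 had an unadjusted p under 0.05 with a lower signal, and 15 were negative on every array. The junction protein gene Jph2 read -1.05 ± 0.45, Stac3 -0.86 ± 0.40, the calcium channel gene Cacna1s -1.35 ± 0.73 and Srl -0.64 ± 0.34 (SD, n = 3 each). Jph2, which the heart and smooth muscle also make, was lowest in sample 2. Part of the list stayed near the pool. Clcn1, Jph1, Sypl2, Cacng1 and Scn4a had means of -0.09 to -0.01 and read -0.36 to -0.03 in sample 3.

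Genes of muscle energy metabolism had medians of -0.76, -0.89 and -1.52, and of -0.75, -0.88 and -2.31 over the 15 without a saturated spot. Limma called 2 of 19 lower over all features, Cox7a1 and Fabp3, both on probes with a saturated spot and named after their values were seen, so they are given without a fold. At an unadjusted p under 0.05 were 17, all lower. Phkg1, a subunit of phosphorylase kinase, read -0.58 ± 0.11, Adssl1 -0.86 ± 0.25, the AMP deaminase gene Ampd1 -0.97 ± 0.48 and the muscle enolase gene Eno3 -1.61 ± 0.86 (SD, n = 3 each). Phkg1 was the least spread of these and read -0.70, -0.55 and -0.49, so sample 3 was not its lowest.

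Myogenic factors and nerve-muscle synapse genes stood nearer to the pool, with medians of -0.09, -0.16 and -0.19. Of 26, 23 were tested, as Musk, Myf5 and Six4 were not well above background, and limma called 0 over all features, with 7 at an unadjusted p under 0.05, all lower. Myf6, a factor kept on in mature fibres, read -0.70, -0.86 and -1.54, and Vgll2 -0.58, -0.82 and -1.74. Mef2c read -0.41 ± 0.21 and the acetylcholine receptor gene Chrna1 -0.49 ± 0.29 (SD, n = 3 each). Myf6 and Vgll2 kept the sample order of the fibre genes, whereas Mef2c and Chrna1 were lowest in sample 2.

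**Figure D4:**
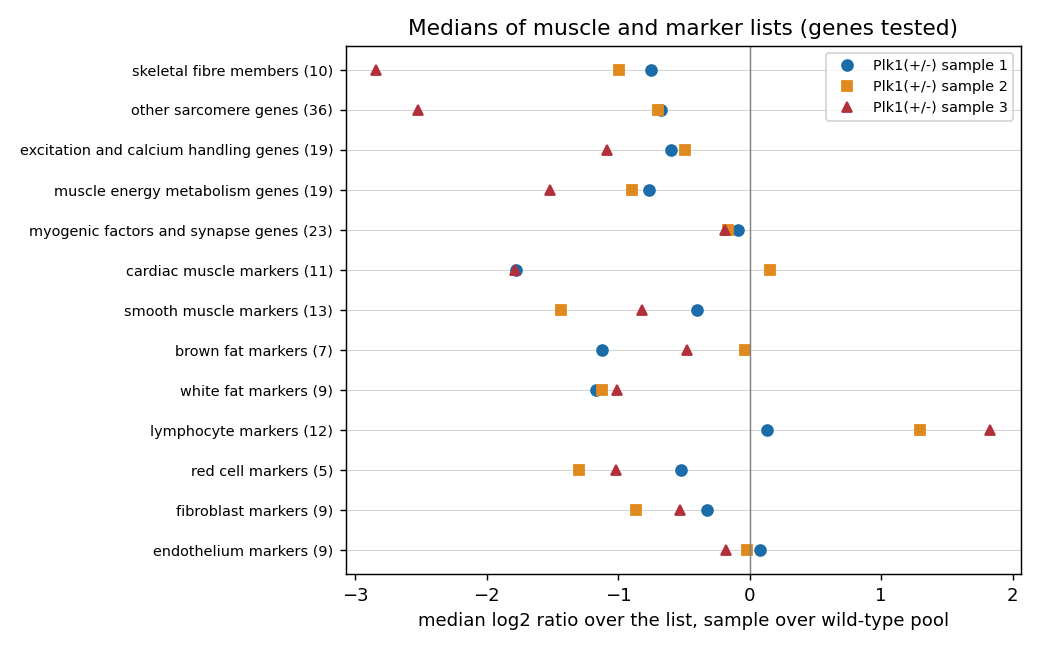
Median log2 ratio over each list (horizontal axis) in Plk1(+/-) samples 1, 2 and 3 over the wild-type pool, with the number of genes tested in brackets. The fibre genes and other sarcomere genes have sample 3 far to the left at -2.84 and -2.52, whereas cardiac markers have samples 1 and 3 together at -1.78 and -1.79 and sample 2 at 0.15.

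Among genes outside the set and without a saturated spot, those nearest to the members' medians over the 3 arrays were Trdn, Hrc, Art1, 2310002L09Rik, Tpm1 and Lmod3. Likeness is the straight-line distance between the 3 log2 ratios and the member medians, over 16625 genes. It was 0.16 for Trdn, which links Casq1 to the calcium release channel, and 0.24 for Lmod3, an actin nucleator of the thin filament. Members themselves lay 0.15 to 1.00 from their medians. Trdn read -0.74, -0.91 and -2.97 in samples 1, 2 and 3, and Art1, which was on no list, -0.89, -0.87 and -2.75. Hrc, a calcium-binding protein of the reticulum, read -0.75, -0.88 and -2.70.

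Markers of other cells differed between the same samples, and their part in the fibre gene result was not tested. Of 13 cardiac markers, 11 were tested, limma called 0 over all features with 2 at an unadjusted p under 0.05, and the medians were -1.78, 0.15 and -1.79. Their summed background-subtracted signal was 26646, 55145 and 26593 in Cy5 of samples 1, 2 and 3 and 20408 to 27974 in Cy3 of the pool. This sum and those below were not corrected between the dyes, and Cy5 was the brighter dye over the array. Their Cy5 and Cy3 values therefore cannot be set against each other as levels. The atrial light chain gene Myl7 read -4.06, 0.54 and -4.10, Tnnt2 -2.73, 0.15 and -3.22, Mybpc3 -2.44, -0.27 and -2.35, and Actc1, also made in other muscle, -0.29, -1.53 and -0.76. Sample 2 was thus near or above the pool in Myl7 and Tnnt2 but below it in Myh7, at -1.60. Bmp10 was not well above background.

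Smooth muscle markers, which define the aortic wall, were all detected and had medians of -0.40, -1.44 and -0.81, so sample 2 was their lowest. All 13 had an unadjusted limma p under 0.05 with a lower signal, and limma called 2 lower over all features, Acta2 and Tagln, both saturated and named after their values were seen. Myh11 read -1.31 ± 0.55, Vcl -0.49 ± 0.18, Smtn -0.40 ± 0.13 and Mylk -0.61 ± 0.30 (SD, n = 3 each). Their summed signal, saturated spots included, was 234395 to 339653 in Cy5 and 224417 to 265067 in Cy3.

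Lymphocyte markers ran the other way, with medians of 0.13, 1.29 and 1.83. Their summed signal, not corrected between the dyes, was 20285, 53447 and 81058 in Cy5 of samples 1, 2 and 3 and 6694 to 8484 in Cy3. Limma called 0 of 12 over all features, with 6 at an unadjusted p under 0.05, all higher, a level that 9.15% of all features reached with a higher signal. On every array 9 were positive, against 26.3% of all features. Ptprc read 1.32 ± 0.87, Lck 1.75 ± 1.26, Cd2 0.87 ± 0.62 and Cd3g 1.17 ± 0.91 (SD, n = 3 each). Sample 3, lowest in fibre genes, was the highest in these 4.

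All fat markers that limma called were on saturated probes. Ucp1, Cox8b and Cidec each read -1.45, -1.43 and -1.49 in samples 1, 2 and 3, like the medians of features at the ceiling in both dyes. Their ratios therefore do not measure expression. Brown fat markers had medians of -1.12, -0.04 and -0.47, with 3 of 7 called lower by limma, all saturated (Ucp1, Cox8b and Cidea). Over the 4 unsaturated ones the medians were -0.42, 0.41 and 0.22, with samples 2 and 3 above 0. These were Otop1 at 0.12 ± 0.30, Elovl3 at 0.12 ± 0.79, Ppargc1a at -0.03 ± 0.63 and Dio2 at -0.03 ± 0.95 (SD, n = 3 each). White fat markers, 7 of 9 with a saturated spot, had medians of -1.17, -1.12 and -1.01. Limma called 4 of them lower, all saturated (Cidec, Fabp4, Cfd and Plin4). The 2 unsaturated ones were Retn at -0.48 ± 0.79, with -1.17, 0.39 and -0.65 in samples 1, 2 and 3, and Lep at -0.45 ± 0.79, with 0.14, -0.13 and -1.35 (SD, n = 3 each). Summed signals were 231315 to 276841 in Cy5 and 205210 to 215470 in Cy3 for brown fat. For white fat they were 469622 to 487933 and 352247 to 401429. These sums include the saturated spots, so they cannot show whether levels differed between samples.

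Red cell markers had medians of -0.52, -1.30 and -1.02, and limma called 2 of 5 lower, the saturated Hba-a1 and the unsaturated Slc4a1 at -1.29 ± 0.08 (adjusted p = 0.0105). Hba-a1 read -1.45, -1.43 and -1.49, like features at the ceiling in both dyes. With saturated features left out, limma called 0 features, so Slc4a1 did not pass (lowest adjusted limma p over all features 0.165). Alas2 read -0.91 ± 0.44, while Epb42 (-0.53 ± 0.22) was well above background in Cy5 on 1 array. Of 9 fibroblast markers limma called 0 over all features and 8 had an unadjusted p under 0.05, all lower, with medians of -0.32, -0.86 and -0.53. Col1a1 read -1.13 ± 0.58, Col1a2 -0.69 ± 0.39, Lum -0.62 ± 0.33 and Mfap5 -0.54 ± 0.23 (SD, n = 3 each). Endothelium markers had medians of 0.08, -0.02 and -0.18, and limma called 0 of 9 over all features with 1 at an unadjusted p under 0.05. They included Nos3 at -0.33 ± 0.09, Kdr at -0.15 ± 0.10, Pecam1 at -0.14 ± 0.21 and Tie1 at -0.07 ± 0.09. Vwf, Emcn, Egfl7, Cdh5 and Tek had means of -0.02 to 0.03. Summed signals in Cy5 and then Cy3 were 81345 to 89458 and 77053 to 81194 for red cells, saturated Hba-a1 included. For fibroblasts, with the saturated Dcn included, they were 193548 to 236167 and 123516 to 155078. For endothelium they were 57908 to 72013 and 23795 to 26469.

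For the whole series, signal was well above background on 77.0% to 80.8% of probe spots in Cy5 and 66.0% to 69.0% in Cy3. Limma called 200 of 22170 features, 0.902%, of which 8 were higher and 192 lower, and 0 once features with a saturated spot were left out, with 3816 then at an unadjusted p under 0.05. Plk1 itself read -0.06, -0.08 and 0.42 in Plk1(+/-) samples 1, 2 and 3 and averaged 0.10 ± 0.28 (SD, n = 3; limma adjusted p = 0.706), so a lower signal was not detected. It has 1 probe, and where that lies relative to the targeted part of the allele is not given in the sources used here. All directions here therefore refer to samples by their label.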

How the data were processed

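Total RNA of aortas was amplified and labelled in 2 dyes, per the labels' protocols. The intensity values deposited are mean spot signals and local backgrounds that, per the file headers, Agilent Feature Extraction 9.5.3.1 wrote out, neither subtracted nor normalized. The deposited log10 ratio is processed Cy5 over processed Cy3, per the file headers. The authors' series values are log2 ratios that equalled the scanner ratio for the member probes, with a centring step not given in the sources used here (column medians -0.02, -0.0052 and -0.03).

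Mean signals were corrected with normexp (offset 50) and normalized by loess within arrays, giving control spots no weight (limma 3.58.1, R 4.3.3). Control spots and outlier spots (136, 109 and 100) were then left out. A probe was kept if on 2 or more arrays either dye was well above background, and the one with the highest mean intensity stood for its gene. Names came from a listing of GRCm38.p6: 22951 probes matched by accession, 6659 by symbol and 3109 by synonym, while 8455 kept the file's name. A two-sided limma test (lmFit, then eBayes) set the log2 ratios against 0, and p-values were adjusted by Benjamini-Hochberg across every feature. The procedure was tested on simulated data. Array numbers limit the precision, and p-values measure only the spread between these 3 samples.

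Members and lists were chosen with earlier results of these data known. Named are all members, from each list up to 4 unsaturated genes by lowest unadjusted p, and the 6 genes nearest in pattern. A red cell gene that this rule names is not reported here. The lists are other sarcomere, excitation and calcium handling, energy metabolism, myogenic factor and synapse genes, and markers of cardiac muscle, smooth muscle, brown fat, white fat, lymphocytes, red cells, fibroblasts and endothelium. The labels' growth protocol is for embryonic stem cells, and the tissue label, aorta, was followed.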

Additional observations from a re-analysis of the deposited data

How the results depend on the processing

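The 10 members stayed negative under all 15 alternatives run, except that Myh2 and Myh4 have no value with saturated features left out, and under all but median centring none passed the test. Over these, the member median ran from -1.97 to -0.90 against -1.56, the extremes being those without sample 1 and without sample 3. With median centring 1 member was called, Tnnt1, the count over all features was 9767, and the median over all features stood at 0.23 in place of 0.04. Relative to that the member median was -1.31 with median centring and -1.60 with loess. Calls over all features numbered 200 with loess, 120 with Agilent's processed signals, 121 with a normexp offset of 10, and 0 with saturated features left out. They numbered 0 also with saturated probes left out before a probe was chosen, an alternative added after seeing the data. Without 1 sample the count ran from 0 to 174, with 0 without sample 2 and without sample 3 (1977 and 3104 at an unadjusted p under 0.05). Fast minus slow ran from -0.0817 to 0.243 without 1 sample, against 0.10 with all, turning sign without sample 2. No paired analysis was possible because the arrays hold a single group against 1 pool. All arrays share 1 slide, so no slide block could be fitted.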
